A study of Mus musculus with 6 samples.

Results

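Replication licensing factors load the MCM helicase onto DNA. The genes of such factors, of the helicase itself and of proteins that act with them were followed here in immortalized cardiosphere-derived cells (iCDCs) of the mouse. The members were the rows of the deposited gene table whose symbol was Mcm2, Mcm3, Mcm4, Mcm5, Mcm6, Mcm7, Mcm10, Cdc6, Cdt1 or Gmnn, and 10 genes of 54532 in the table were found by these symbols. iCDCs, as the labels name them, are a single line grown from the epicardium of adult C57BL/6 heart ventricle and immortalized with a telomerase (hTERT) lentivirus. RNA sequencing was performed on 3 control libraries of iCDCs at passage 30 and on 3 induced libraries. Induced cells carried the same transgene and were of the same passage, and received 10 µM 5-azacytidine, an inhibitor of DNA methylation, for 3 days and then medium with 2% serum for 4 weeks according to the labels. The methods of the study give another medium and duration for that culture. No group had the drug, the low serum or the time in culture alone, so these cannot be told apart in this comparison.

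Before a cell copies its DNA, the origin recognition complex marks start sites, and Cdc6 and Cdt1 load the ring of Mcm2 to Mcm7 onto them in G1 phase, a step called licensing. Geminin, encoded by Gmnn, binds Cdt1 and blocks further loading once replication has begun, so that each stretch of DNA is copied a single time per cycle. Mcm10 helps the loaded helicase to start unwinding. Transcription of most of these genes is driven by E2F factors in cycling cells and falls when cells leave the cycle.

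Libraries held 19041133 to 19823369 reads. Levels are given as CPM (read counts scaled to a common library total) with TMM scaling (trimmed mean of M-values), and as deposited FPKM where genes are compared with each other. The surface marker genes Eng, Thy1 and Ly6a summed, without TMM scaling, to 507 to 515 CPM in control and 562 to 583 CPM in induced libraries. Eng carried most of this sum and rose by little (log2 fold change 0.12, edgeR adjusted p 0.0190). Thy1 rose more (0.54, adjusted p 5.60e-08) and Ly6a fell (-0.57, adjusted p 2.89e-05). All 4 leukocyte markers had 0 reads in every library, which allows up to 0.151 to 0.158 CPM per library for counting error alone, and 4 endothelial markers summed to at most 0.925 CPM. The sum of 5 cardiomyocyte markers was at most 1.65 CPM in control and 2.45 to 2.89 CPM in induced libraries, most of it from Tnni3, with 90 and 115 reads per group. The other 4 had few reads, 0 in control and 1 in induced cells for Myh6, 0 and 8 for Actn2, 0 and 4 for Nppa, and 1 and 29 for Ryr2.

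Every member was lower in induced cells. With the quasi-likelihood test of edgeR, adjusted by the Benjamini-Hochberg procedure over all genes and read at 0.05, 10 of 10 members fell, against 32.2% of the 14246 genes tested that were lower and 32.6% that were higher. Of the 10 members, 8 fell by 2-fold or more, against 7.83% of genes tested, and Mcm2 and Gmnn were the members outside it. The induced libraries lay below every control library for 10 of 10 members, against 34.5% of genes tested. The median log2 fold change of the members was -1.25 (range -1.79 to -0.78), that of the 6 helicase subunits was -1.19, and that of all genes tested was -0.0070. In bulk RNA, fewer cycling cells and less RNA per cell cannot be told apart. All 7 proliferation markers fell as well, with a median log2 fold change of -1.82 and a summed level, without TMM scaling, of 619 to 646 CPM in control and 186 to 202 CPM in induced libraries, and their part in the fall of the members was not tested.

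**Figure D1:**
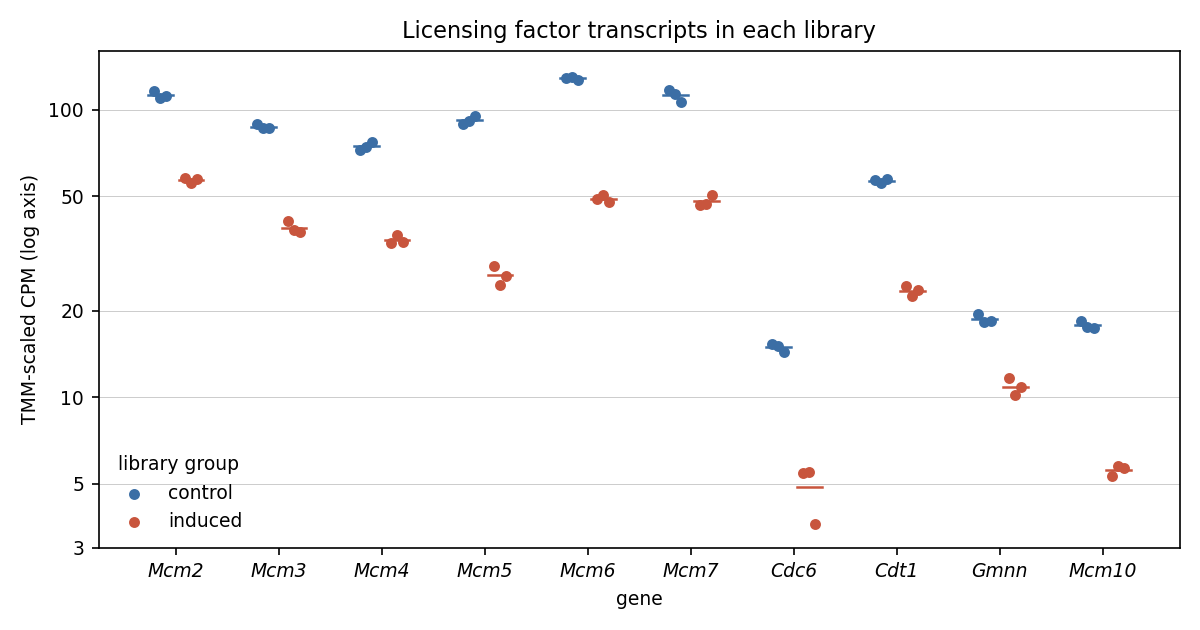
TMM-scaled CPM (log axis) of the 10 members in each of the 3 control and 3 induced libraries, points for libraries and horizontal lines for group means. The induced points lie below the control points for every member, and the widest scatter is that of Cdc6 in induced cells, from 3.62 to 5.52 CPM.

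Promoter sequences show which of the letters read by cell cycle factors stand near these starts. Windows of 250 bases before to 50 bases after the start, from the RefSeq annotation of GRCm38.p6, matched 8 of the 10 members, the others being Mcm4 and Gmnn. A few sets of letters were searched on both strands, the E2F words TTTCCCGC, TTTCGCGC, TTTGCCGC and TTTGGCGC, the cell cycle homology region (CHR) words TTTGAA and TTCGAA, and the CCAAT box. The 180 bases before the start are printed for Mcm5 and Mcm6, the subunits with the largest falls and with E2F words, and for Mcm2 and Mcm10, the 2 members with a window but no E2F word. They are written 5′ to 3′ along the gene's strand, at chr8:75109329-75109508 (plus strand) for Mcm5, chr1:128359706-128359885 (minus strand) for Mcm6, chr6:88898781-88898960 (minus strand) for Mcm2 and chr2:5012792-5012971 (minus strand) for Mcm10. Capitals mark E2F, CHR and CCAAT letters on either strand, and positions count back from -1 for the base before the start.
Mcm5: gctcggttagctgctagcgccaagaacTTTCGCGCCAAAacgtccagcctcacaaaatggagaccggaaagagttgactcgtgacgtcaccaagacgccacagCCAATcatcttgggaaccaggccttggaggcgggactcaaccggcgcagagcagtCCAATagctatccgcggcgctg
Mcm6: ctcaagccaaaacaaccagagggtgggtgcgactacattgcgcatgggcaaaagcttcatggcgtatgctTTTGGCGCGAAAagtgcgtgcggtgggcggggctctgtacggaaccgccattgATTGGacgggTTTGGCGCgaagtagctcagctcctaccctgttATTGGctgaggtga
Mcm2: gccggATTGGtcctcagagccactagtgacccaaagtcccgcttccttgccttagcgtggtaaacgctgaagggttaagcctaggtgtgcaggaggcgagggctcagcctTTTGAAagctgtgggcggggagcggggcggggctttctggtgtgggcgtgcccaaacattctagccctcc
Mcm10: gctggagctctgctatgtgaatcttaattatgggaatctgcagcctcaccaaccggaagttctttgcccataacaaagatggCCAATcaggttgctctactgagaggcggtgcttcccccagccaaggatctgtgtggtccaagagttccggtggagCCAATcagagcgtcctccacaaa

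In Mcm5 the capitals that come first are an E2F word at -153 and another on the opposite strand at -149, which overlap by 4 bases, followed by CCAAT letters at -77 and -22. The Mcm6 stretch has the same overlapping arrangement at -110 and -106 and a further E2F word at -47, beside CCAAT letters at -57 and -14. In the Mcm2 stretch the capitals are CCAAT letters at -175 and the CHR word TTTGAA at -70, and in Mcm10 they are CCAAT letters at -98 and -23. Over the whole 300-base windows, an E2F word occurred in 6 of 8 members (Mcm3, Mcm5, Mcm6, Mcm7, Cdt1 and Cdc6), against 2.26% of all 32851 windows and 3.79% of the 13220 windows of tested genes. A CCAAT box occurred in 6 of 8 members, against 37.4% of all windows and 37.7% of those of tested genes. A CHR word occurred in 2 of 8 (Mcm2 and Mcm7), against 19.2% and 13.7%. Members were counted if any of their windows matched, while the background is a share of windows. The 6 members with an E2F word had log2 fold changes of -1.79 to -1.16 (median -1.33), while of the pair without one, Mcm10 at -1.67 lay inside that range and Mcm2 at -0.98 outside it. Mcm7 has 2 windows, and its E2F and CHR words stand in the same 1 of them. These matches describe letters in a window and carry no measurement of binding.

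The 6 subunits of the helicase ring together took 0.0606% to 0.0621% of the reads in control libraries and 0.0249% to 0.0252% in induced libraries. In summed level this was 602 to 612 CPM in control and 253 to 258 CPM in induced cells. The replicates of a group thus lay close together, and the groups far apart.

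Mcm5, which lies next to Mcm2 in the ring, fell most of the 10 members. Its level was 89.4, 91.6 and 94.8 CPM in control libraries 1 to 3 and 28.5, 24.6 and 26.5 CPM in induced libraries 1 to 3. The groups were widely separated and no library stood apart from its group. The mean went from 91.9 ± 2.71 to 26.5 ± 1.94 CPM (SD, n = 3), and 28.9% of the control level was left. Its log2 fold change was -1.79 (SE 0.061, edgeR adjusted p 1.59e-14), and 2.82% of genes tested had a lower one.

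Mcm6 was the most abundant subunit in control cells per length. Its control libraries had 129, 130.2 and 126 CPM and its induced libraries 48.9, 50.5 and 47.7 CPM, and the groups were far from overlapping. The log2 fold change was -1.39 (SE 0.053, edgeR adjusted p 7.48e-14), which corresponds to a 2.62-fold fall.

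Mcm7 contributes to the ATPase core of the ring together with Mcm4 and Mcm6. It had 117, 114 and 106 CPM in control and 46.7, 46.9 and 50.4 CPM in induced libraries. Here the lowest control and the highest induced library were both replicate 3, and they were still separated by more than 2-fold. The log2 fold change was -1.22 (SE 0.058, edgeR adjusted p 1.54e-12). This count is less certain than the others, because 12.6% of the exon bases of Mcm7 are shared with Ap4m1, Cops6, Mir25 and Mir93, and 26.0% of its 50-base stretches also occur in the processed pseudogene Gm5487. The pseudogene itself had 11 reads over the control and 5 over the induced libraries.

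Mcm4 had 72.1, 74.0 and 77.1 CPM in control and 34.4, 36.8 and 34.6 CPM in induced libraries. Its log2 fold change was -1.08 (SE 0.056, edgeR adjusted p 6.50e-12). Mcm3, the subunit through which the ring first meets the loading machinery, had 88.8, 86.2 and 86.3 CPM in control and 41.0, 38.2 and 37.4 CPM in induced libraries. The Mcm3 log2 fold change was -1.16 (SE 0.055, edgeR adjusted p 1.66e-12). Both genes were cleanly separated between groups, with 2.11-fold and 2.24-fold falls.

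Mcm2, the subunit that also carries parental histones at the fork, fell least of the ring. It had 116, 109.6 and 111 CPM in control and 58.0, 55.5 and 57.2 CPM in induced libraries. Its groups did not overlap, and the mean went from 112 ± 3.25 to 56.9 ± 1.24 CPM (SD, n = 3), so that 50.7% of the control level was left. The log2 fold change was -0.98 (SE 0.053, edgeR adjusted p 1.09e-11).

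The FPKM values, which divide by gene length, put the subunits on a common scale. In control cells the order was Mcm6 (27.3 ± 0.356 FPKM), Mcm7 (25.1 ± 1.19), Mcm3 (23.0 ± 0.406), Mcm5 (22.8 ± 0.700), Mcm4 (20.5 ± 0.734) and Mcm2 (16.0 ± 0.474), each as mean ± SD of 3 libraries. Among these neighbours, Mcm3 and Mcm5 were the pair whose libraries overlapped. In induced cells Mcm7 (10.8 ± 0.480 FPKM), Mcm6 (10.5 ± 0.292), Mcm3 (10.3 ± 0.513) and Mcm4 (9.81 ± 0.343) followed each other with overlapping libraries. Below them came Mcm2 at 8.17 ± 0.190 FPKM and then Mcm5 at 6.63 ± 0.493 FPKM, both separated from the rest of the ring. Among all 10 members, Mcm5 moved from rank 4 in control to rank 8 in induced cells. The summed FPKM of the ring was 134 to 135 in control and 55.8 to 57.0 in induced libraries, and the highest subunit stood 1.71-fold over the lowest in control and 1.63-fold in induced cells. These level ranks depend on the gene length used. The deposited lengths count all exon bases of a gene, 6956 for Mcm2 against 3371 in its coding transcript, and with coding transcript lengths, a choice made after the data were seen, Mcm2 moved from rank 7 to rank 3 in control and from rank 5 to rank 1 in induced cells, the spread was 2.13-fold and 2.15-fold, and Mcm5 went from rank 5 to rank 8.

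**Figure D2:**
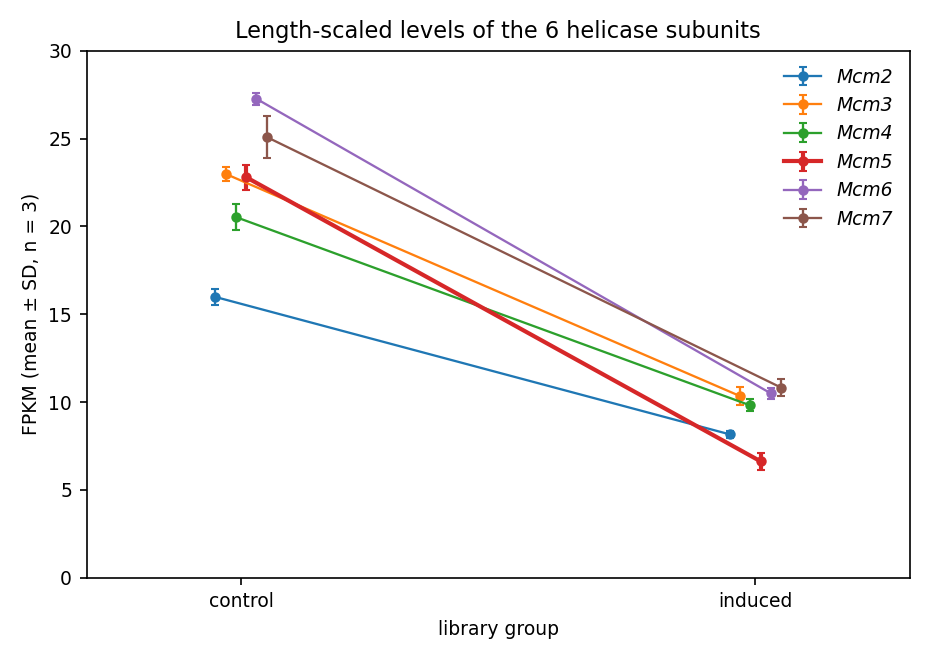
Deposited FPKM of Mcm2 to Mcm7 (vertical axis from 0) as group means of 3 control and 3 induced libraries, joined by a line per subunit, with bars for the SD. Mcm5 lies among the middle subunits in control cells at 22.8 FPKM and is the lowest of the 6 in induced cells at 6.63 FPKM.

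Because the subunits assemble in equal numbers, the ratio of each subunit to the mean log2 FPKM of the other 5 was computed within each library, where gene length cancels between groups. The log2 ratio of Mcm5 to the other 5 was -0.0071, 0.050 and 0.11 in control libraries 1 to 3 and -0.48, -0.68 and -0.57 in induced libraries 1 to 3. The Mcm5 ratio thus lay lower in every induced library, with a difference of -0.63. For Mcm6 the ratio was also lower in every induced library, by -0.14. The ratios of Mcm2, Mcm4 and Mcm3 were higher in every induced library, by 0.35, 0.23 and 0.13, and since Mcm5 is among the other 5 of each of these, its larger fall raises them by construction. The ratio of Mcm7 differed by 0.06 with overlapping groups (exact permutation p 0.5, adjusted over 6 ratios 0.5). For the other 5 ratios the two-sided exact permutation p was 0.1, the smallest that 3 against 3 libraries allow, and 0.12 after Benjamini-Hochberg adjustment, so this test could not pass 0.05.

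**Figure D3:**
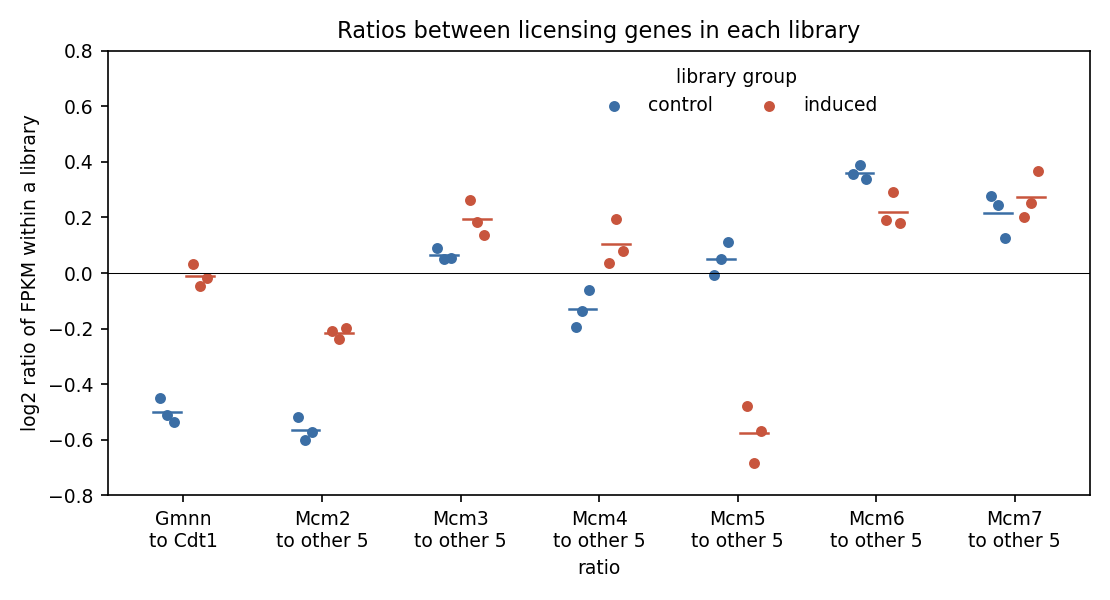
Log2 ratio within each library of each helicase subunit to the mean of the other 5, and of Gmnn to Cdt1, with points for libraries of control and induced cells and horizontal lines for group means. The Mcm5 ratio is lower in every induced library, with a difference of -0.63 in group means, and the Gmnn to Cdt1 ratio is higher in every induced library, with a difference of 0.49.

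Of the loading factors, Cdt1 was the more abundant per length, and Cdc6 was scarce. Cdt1, which brings the ring to the origin, had 56.8, 55.7 and 57.5 CPM in control and 24.4, 22.5 and 23.6 CPM in induced libraries. Replicates lay tightly together and the groups did not overlap. Its log2 fold change was -1.27 (SE 0.060, edgeR adjusted p 1.71e-12), a 2.41-fold fall. Among the members outside the ring it was also the gene closest in profile to the mean of the 6 subunits, at a distance of 0.069 on the log2 scale over the 6 libraries.

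Cdc6, the ATPase that joins the origin recognition complex to receive the ring, had 15.4, 15.1 and 14.4 CPM in control and 5.47, 5.52 and 3.62 CPM in induced libraries. Induced library 3 was low, with 69 reads against 103 and 105 in induced libraries 1 and 2, and the coefficient of variation of the induced group was 22.3%. All 3 were nevertheless far below the control libraries, which had 287 to 303 reads. The log2 fold change was -1.62 (SE 0.14, edgeR adjusted p 6.52e-09), and without induced replicate 3 it was -1.43 (adjusted p 1.01e-08). On the log2(FPKM + 1) scale, where low values shrink, it was -0.99. Of its 50-base stretches, 8.25% also occur in the pseudogene Gm9430, which had 1 read in all.

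Geminin fell least of all members. Gmnn had 19.4, 18.2 and 18.5 CPM in control and 11.6, 10.2 and 10.9 CPM in induced libraries, from 193 to 383 reads per library. The groups were separated, though by less than for any other member. The mean went from 18.7 ± 0.615 to 10.9 ± 0.744 CPM (SD, n = 3), which left 58.2% of the control level, and the log2 fold change was -0.78 (SE 0.092, edgeR adjusted p 5.83e-07). Of all genes tested, 11.2% had a lower fold change.

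The RNA of the inhibitor and that of its target moved closer together. The log2 ratio of Gmnn to Cdt1, in FPKM within a library, was -0.45, -0.51 and -0.54 in control libraries 1 to 3 and 0.032, -0.046 and -0.017 in induced libraries 1 to 3. Every induced library was above every control library, with a difference of 0.49 (two-sided exact permutation p 0.1, the smallest this design allows). On the linear scale the mean ratio was 0.708 in control and 0.993 in induced cells. The FPKM behind it were 17.9 ± 0.317 for Cdt1 and 12.7 ± 0.423 for Gmnn in control, and 7.47 ± 0.321 and 7.43 ± 0.517 in induced cells (SD, n = 3). The linear value depends on the lengths used for both genes, and the difference on the log2 scale does not. Both proteins are also governed by degradation through the cycle, which RNA does not show.

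Mcm10, printed above with CCAAT letters but no E2F word, fell by about as much as Cdc6, and the order of the pair changed when induced replicate 1 or 2 was left out. Its libraries had 18.3, 17.6 and 17.4 CPM in control and 5.31, 5.79 and 5.66 CPM in induced culture, from 345 to 362 and from 100 to 110 reads. Both groups were narrow and far apart. The log2 fold change was -1.67 (SE 0.10, edgeR adjusted p 8.40e-11), a 3.18-fold fall, and on the log2(FPKM + 1) scale it was -0.93. Per length it was the scarcest member, at 2.29 ± 0.0628 FPKM in control and 0.725 ± 0.0308 FPKM in induced cells, next to Cdc6 at 2.83 ± 0.0920 and 0.930 ± 0.207 FPKM (SD, n = 3). The libraries of this pair overlapped in induced and not in control cells.

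The members lie apart in the genome, and their table coordinates are those of GENCODE M21 on GRCm38. The subunit genes are on chromosome 6 for Mcm2 (ENSMUSG00000002870, 88883474 to 88898780, minus strand), chromosome 1 for Mcm3 (ENSMUSG00000041859, 20802968 to 20820312, minus strand) and Mcm6 (ENSMUSG00000026355, 128331590 to 128359664, minus strand), chromosome 16 for Mcm4 (ENSMUSG00000022673, 15623897 to 15637400, minus strand), chromosome 8 for Mcm5 (ENSMUSG00000005410, 75109569 to 75128439, plus strand) and chromosome 5 for Mcm7 (ENSMUSG00000029730, 138164583 to 138172422, minus strand). Cdt1 is also on chromosome 8 (ENSMUSG00000006585, 122568015 to 122573554, plus strand), Cdc6 on chromosome 11 (ENSMUSG00000017499, 98907801 to 98923940, plus strand), Gmnn on chromosome 13 (ENSMUSG00000006715, 24751845 to 24761923, minus strand) and Mcm10 on chromosome 2 (ENSMUSG00000026669, 4989714 to 5012791, minus strand).

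Genes within 2000 bases of a member, chosen after values were seen, did not all move with it. Prkdc, the catalytic subunit of the DNA-dependent protein kinase of end joining, starts 465 bases from Mcm4 on the opposite strand. It had 17.1, 16.5 and 17.5 CPM in control and 18.5, 21.7 and 17.5 CPM in induced libraries, with overlapping groups. Its log2 fold change was 0.17 (SE 0.091, edgeR adjusted p 0.105), opposite in sign to the fall of Mcm4. Without induced replicate 2 it was 0.085 (adjusted p 0.423), and without induced replicate 3 it was 0.25 (adjusted p 0.0400). The difference between these neighbours was not tested. Ap4m1, an adaptor subunit whose annotation overlaps Mcm7 by 421 bases, went down from 19.6 ± 0.667 CPM in control to 11.7 ± 0.935 CPM in induced cells, a log2 fold change of -0.74 at an edgeR adjusted p of 9.77e-07. Cops6, a subunit of the COP9 signalosome that overlaps Mcm7 by 64 bases, had a log2 fold change of -0.27 (edgeR adjusted p 0.00113). Without strand in the counting, reads in these overlaps cannot be assigned to a gene, and the strand setting is not given in the sources used here. Aprt, the adenine salvage enzyme 1080 bases past Cdt1, had a log2 fold change of -0.49 (edgeR adjusted p 5.64e-06). The 3 microRNA genes inside Mcm7 had 1 read in all libraries together. They lie on the strand of Mcm7, and Mir25 and Mir93 share exon bases with it, so this count does not measure their level.

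The genes around the members in the pathway were read from 9 lists with 63 genes, of which 59 were tested. Of these, 45 fell (76.3%, against 32.2% of all genes tested), 6 rose and 8 did not pass the test, with a median log2 fold change of -0.76. By step, 3 of 8 turnover genes and 3 of 6 subunits of the origin recognition complex were lower, and 5 of 5 for Cdc45 and the GINS complex.

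Upstream of the helicase, Orc1, the subunit of the origin recognition complex that cycles with licensing, went down from 5.88 ± 0.379 CPM in control to 1.60 ± 0.501 CPM in induced cells, a log2 fold change of -1.88 at an edgeR adjusted p of 2.43e-07. Orc6 fell by 0.42 on the log2 scale, and the median over the 6 subunits was -0.053. Orc4 and Orc5 rose, with log2 fold changes of 0.23 (edgeR adjusted p 0.0175) and 0.21 (0.0409). Both calls were fragile. Orc5 was lost with DESeq2 (adjusted p 0.0803), library totals alone (0.0907), no filter (0.0782) and the replicate block (0.0568). Orc4 was lost without control replicate 1, control replicate 2 or induced replicate 3 (log2 fold change 0.18 to 0.22, adjusted p 0.0521 to 0.0849), and Orc5 was lost when any library other than induced replicate 1 was left out (0.20 to 0.22, adjusted p 0.0516 to 0.101). Among the MCM relatives, Mcm8, which acts with Mcm9 in recombination repair, had a log2 fold change of -0.76 (edgeR adjusted p 0.000232), Mcm9 itself had 0.24 (adjusted p 0.0688), and Mcmbp, a binding partner of newly made subunits, had -0.30 (adjusted p 9.03e-05). The paralogues of geminin that act in multiciliated cells, Gmnc and Mcidas, were not tested, with at most 2 reads per group.

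Of 8 tested genes for the turnover of Cdt1 and geminin, 3 fell, 2 rose and 3 did not pass, with a median log2 fold change of 0.02. These shares were near the 32.2% lower and 32.6% higher of all genes tested. The 3 that fell were substrate receptors or activators of ubiquitin ligases. Dtl, the receptor that hands Cdt1 to the Cul4 ligase on chromatin, went down from 24.5 ± 0.321 CPM in control to 6.51 ± 1.25 CPM in induced cells, a log2 fold change of -1.91 at an edgeR adjusted p of 3.56e-11. Skp2 fell by 1.56 and Fzr1, the activator under which geminin is degraded, by 0.73 on the log2 scale. The shared ligase parts Ddb1 and Cul4b rose, with log2 fold changes of 0.098 (edgeR adjusted p 0.0389) and 0.16 (0.0363). Both calls were fragile as well, and with library totals alone Ddb1 had an adjusted p of 0.159 and Cul4b of 0.114. With the replicate block Ddb1 had 0.0799. On the FPKM scales of limma both were lost too. Ddb1 was lost when any control library or induced replicate 1 was left out (log2 fold change 0.082 to 0.12, adjusted p 0.0549 to 0.186), and Cul4b when any control library, induced replicate 2 or induced replicate 3 was left out (0.10 to 0.18, adjusted p 0.0625 to 0.111).

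Downstream, the transcripts of the proteins that join the loaded ring fell as well. Cdc45 fell by 1.68 and Gins1 by 1.76 on the log2 scale, while Gins4 fell by 0.23, and the median of the 5 genes was -1.28. Of 7 origin firing genes 6 fell, among them Dbf4, the activating subunit of the Cdc7 kinase that phosphorylates the ring (log2 fold change -1.07), and Ticrr (-1.74), while Donson had 0.099 (edgeR adjusted p 0.595). All 4 fork protection genes fell, with a median of -1.56, among them Timeless (-1.57) and Clspn (-1.55). In the unloading of the helicase, Lrr1 (-1.49) and Traip (-1.11) fell and Cul2 had 0.079 (edgeR adjusted p 0.333). Of 23 genes for polymerases, primase, clamp and ligase, 20 fell, with a median of -0.82, and Lig1 (-1.23), Pole (-1.53) and Prim1 (-1.68) had the smallest p of them. Pold4 and Pole3 rose, with log2 fold changes of 0.32 (edgeR adjusted p 0.000627) and 0.18 (0.0146), the latter call being lost without control replicate 2 (0.14, adjusted p 0.0998) and with library totals alone (adjusted p 0.0524), and Fen1 had -0.097 (adjusted p 0.689).

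**Figure D4:**
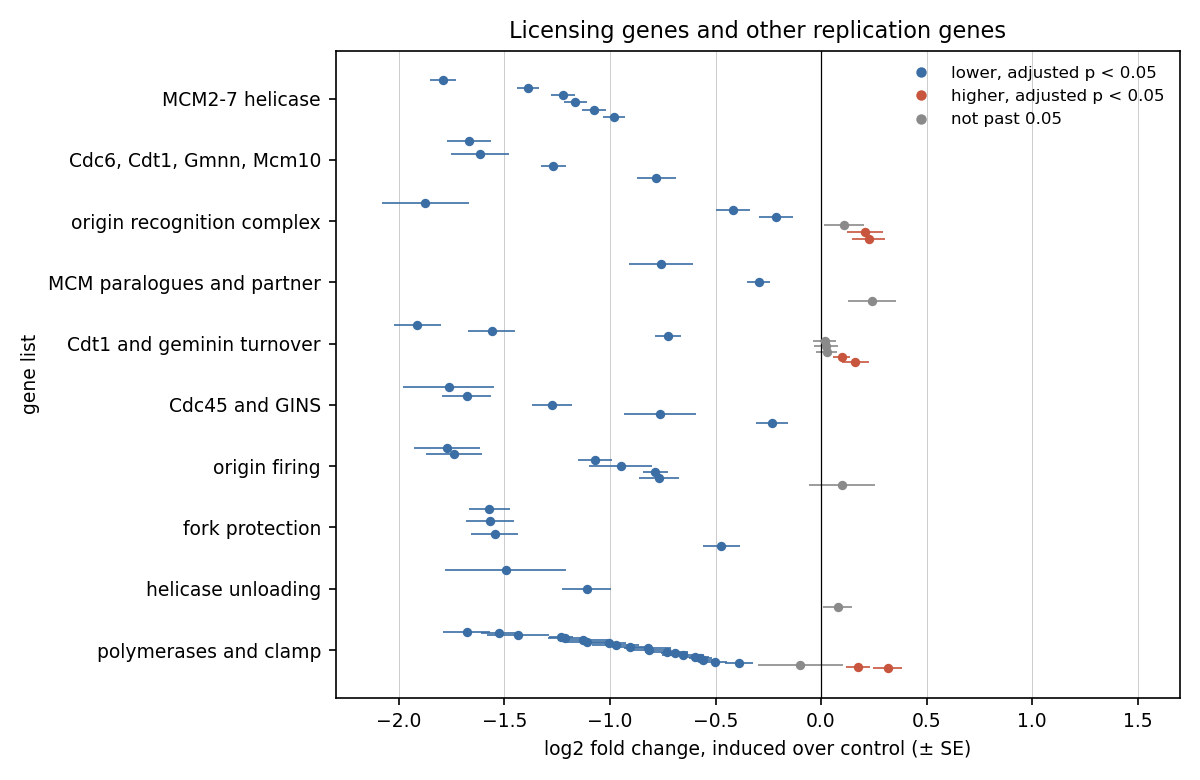
Log2 fold change (induced over control) with its standard error for the members and the pathway genes, grouped by step, in blue for genes that fell, red for genes that rose and grey for genes not past an edgeR adjusted p of 0.05. The members lie between -1.79 and -0.78. Apart from Orc1, Dtl, Skp2 and Fzr1, the origin recognition and turnover genes lie between -0.42 (Orc6) and 0.23 (Orc4).

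Outside the members and the lists, the genes whose profile over the 6 libraries was nearest to the mean of the 6 ring subunits were Fam43a, Rcl1, Cbx2, Ccdc102a and Dusp4, at distances of 0.051 to 0.091 on the centred log2 CPM scale, and Cdt1 at 0.069 was nearer than the last 3 of them. This measure is set mostly by the size of the group difference. Fam43a went from 114 ± 0.815 to 48.3 ± 1.39 CPM and Rcl1 from 53.7 ± 1.39 to 22.4 ± 0.460 CPM (SD, n = 3).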

How the data were processed

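Total RNA was taken from 3 separate samples per group, and libraries were made with the NEBNext Ultra kit. The methods of the study give another number of biological replicates per condition and name a further library method besides this kit. All samples came from a single cell line. The authors deposited, for each library, unnormalized counts of reads per gene and FPKM values. On recalculation, the FPKM were counts over gene length and over a depth of 0.980 to 1.03 times the total count. The submitters' processing notes list HISAT2 2.0.5, featureCounts 1.5.0-p3, DESeq2 1.16.1 and mm10. The strand setting is not given in the sources used here. Fold changes, p-values and Gene Ontology terms computed by the authors were not used.

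Counts were tested with edgeR 4.0.16 in R 4.3.3. Low counts were removed by filterByExpr at a minimum of 10 reads and a total of 15, and 14246 genes remained. Libraries were scaled by TMM, and the quasi-likelihood test (two-sided, prior count 0.125) was adjusted by Benjamini-Hochberg over all genes tested. The SE given with an edgeR fold change is the absolute log2 fold change divided by the square root of the F statistic of that test. Ratios were compared by exact permutation in SciPy 1.17.1. The edgeR step was tried on simulated counts in which far fewer genes changed than were called here. That simulation does not test the scaling when most genes move. Groups came from the sample titles, and p-values measure the spread between these samples. The members, the pathway lists and the tests were chosen with earlier results of these data known. Named genes are all members, up to 3 genes per list with the smallest p, genes against their list, and the 5 nearest profiles. Donson, Gins4, Fen1, the cell type markers given singly and the neighbours of members fall outside this rule and were chosen after their values were seen. Gmnc and Mcidas, which were not tested, fall outside it as well. Alternatives were DESeq2 1.42.0, other scalings and filters, limma 3.58.1 on FPKM, a replicate block, and leaving out each library. The main fit read at an adjusted p under 0.01 was counted as an alternative too, and it repeats the main fold changes.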

Additional observations from a re-analysis of the deposited data

How the results depend on the processing

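All 10 members kept their direction and their call in all 150 values from 15 alternatives per gene, with a largest adjusted p of 5.52e-05. Of 435 values for named pathway genes, 400 kept direction and call and 35 lost the call, all of Orc4, Orc5, Ddb1, Cul4b and Pole3. None reversed. Each of these genes lost a call when the main fit was read at 0.01, where the fold change is the same and the threshold alone moves. The number of genes past the threshold was 9225 with edgeR, 8593 with DESeq2 and 9765 without a filter, and 8514 to 9348 when a library was left out. On the log2(FPKM + 1) scale, limma gave smaller changes for the scarce members, -0.93 for Mcm10 and -0.99 for Cdc6, since the pseudocount shrinks low values. The cause of the other lost calls was not tested. Same-numbered libraries did not deviate together (correlations of 0.0090, -0.0091 and 0.027). Whether they were handled as pairs cannot be told from this, since cultures can share a batch without a shared deviation. With the replicate block 9063 genes passed and no member call changed. Differences of ratios kept their direction in all 63 values, but 3 libraries per group cannot reach an exact p under 0.1. Among the members, depth limits Cdc6, Gmnn and Mcm10 most, with 69 to 383 reads per library. Some named pathway genes had fewer, with 91 reads for Orc1, 137 for Gins1 and 42 for Lrr1 over the 3 induced libraries together. The log2 fold change of Gins1 was -1.55 without induced replicate 1 and -2.20 without induced replicate 3.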
